A study of Nothobranchius furzeri with 12 samples.

Results

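In the brains of the turquoise killifish Nothobranchius furzeri, 54 of 23546 genes differed 10-fold or more between the lowest and the highest of 6 fish. RNA of brain and skin was sequenced from fish of the strain MZM-0410, written MZM-0401 in the design text. All were 39 weeks old, with at most 1 library per fish and tissue and no treatment, sex or genotype in the labels. The brains came from fish 6, 8, 24, 38, 41 and 46 and the skins used here from fish 8, 12, 38, 41 and 46. A further library labelled skin of fish 6 was kept apart. The genes were chosen from the brain values themselves: the highest brain had at least 3 CPM (the standard scaling of a gene's count to the total count of its library), and the highest brain was at least 10 times the lowest after 0.5 CPM was added to each. Of 16626 genes with at least 3 CPM in a brain, the 54 made up 0.325%. The spread between brains is thus a description of what was selected and carries no test.

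The turquoise killifish is an annual fish that is studied for its short life and rapid ageing. MZM-0410 goes back to wild fish from Mozambique and lives longer than the inbred laboratory strain GRZ. A whole brain mixes neurons, glia, vessels, meninges and blood, and may carry glands that lie against it. In such bulk RNA, fewer cells of a type and less RNA per cell cannot be told apart. Differences between individuals can be specific to a tissue or shared by the tissues of a fish, which is why the levels in skin are given beside those in brain. The file gives gene identifiers without names, none of them was found in the RefSeq gene table, and the roles of the 54 genes are therefore not given. The labelled tissues could not be checked against named marker genes.

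Brain libraries held 17.6 to 22.7 M reads in genes and the 5 skins 9.10 to 27.1 M, so that 1 CPM stood for 17.6 to 22.7 reads in a brain. A count of 0 allows up to 0.132 to 0.171 CPM in a brain and 0.111 to 0.330 CPM in a skin, for counting error only. The library labelled skin of fish 6 ranked its genes like a brain, with Spearman's rho of 0.973 to 0.978 to the brains and 0.646 to 0.756 to the other skins. In the skin of fish 41, genes that were near absent from the other skins (413 genes, with a brain median of 20 CPM or more and no more than 0.3 CPM in the skins of fish 8, 12, 38 and 46) stood at 1.96% of their brain median, as the median over these genes. The same measure, with sets chosen without the skin measured and without that of fish 41, was 0.0737 to 0.156% in the other skins.

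The spread of the 54 genes was large against the usual gene. Over the 16626 genes, the median ratio of highest to lowest brain was 1.28 (interquartile range 1.18 to 1.47). Of the 54, 41 had ratios of 10 to 20, 10 had ratios of 20 to 100, and 3 were above 100. Just inside the bound stood Nfu_g_1_000375 at a ratio of 10.02 and just outside it Nfu_g_1_007641 at 9.83. The highest brain of each gene held 106 to 25015 reads, and 8 of the genes had a brain with 0 reads. The bound of 3 CPM left out no gene, since the ratio of 10 needs at least 4.5 CPM. The lowest peak level among the 54 was 5.83 CPM. Gene lengths, worked out from counts and RPKM, had a median of 2096 bases (interquartile range 1224 to 3290), against 2881 bases (1455 to 4963) over the 16626 genes.

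The brains in which the genes were high were partly the same from gene to gene. A brain was counted as high for a gene when it lay at or above the geometric mean of the gene's lowest and highest brain. The 54 genes then made 16 sets, and 3 of the sets, with at least 5 genes each, held 27 of them. One set, high in the brains of fish 6, 38 and 46, had 11 genes. The other 43 genes included 8 that were low in the brain of fish 41 alone (fish-41-low) and 8 that were low in the brain of fish 38 alone (fish-38-low). The lowest brain was counted by fish, without a count over all genes beside it. Among the 43, the brain of fish 38 was the lowest in 16, that of fish 41 in 15, that of fish 46 in 10 and that of fish 8 in 2. Neither fish 6 nor fish 24 gave the lowest brain of any of the 43. Taking out the set of 11 bears on these counts, since its lowest brain can only be that of fish 8, 24 or 41. Over all 54 genes the lowest brain was that of fish 8 in 6, fish 24 in 5, fish 38 in 16, fish 41 in 17 and fish 46 in 10, with ties given to the lower fish number. Brain values are listed from here on in the order of fish 6, 8, 24, 38, 41 and 46, and skin values in the order of fish 8, 12, 38, 41 and 46.

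**Figure D1:**
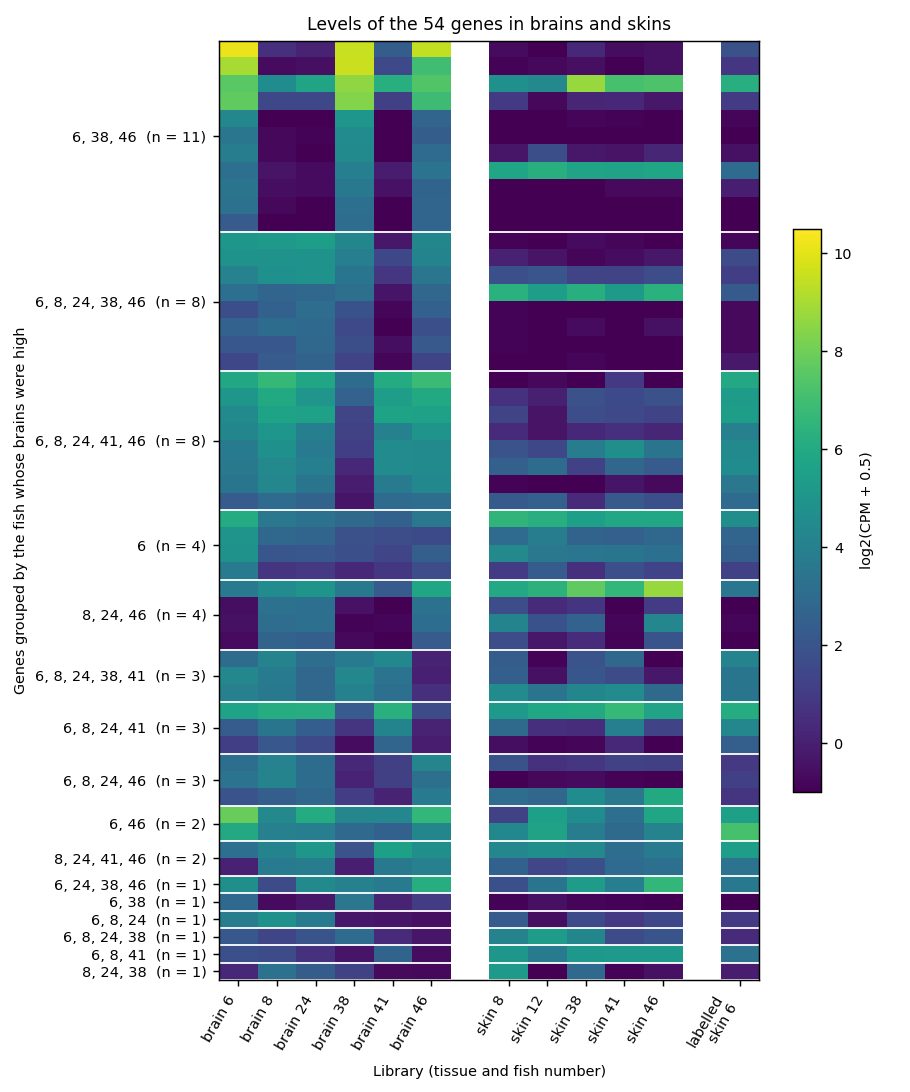
Levels of the 54 genes as log2(CPM + 0.5), in the 6 brains, the 5 skins and the library labelled skin of fish 6 (columns). Rows are genes, grouped by the fish whose brains were high, with the number of genes in each set. The sets low in 1 brain only, that of fish 41 or of fish 38, form the second and the third block, and most genes of the first 2 blocks are dark in skin.

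The set shared by the brains of fish 6, 38 and 46 was the widest in range. Nfu_g_1_014206 was at 1133, 0.971, 0.606, 749, 4.78 and 694 CPM in brain and at 0.133, 0, 0.740, 0.148 and 0.220 CPM in skin. Nfu_g_1_002728 was at 517, 0.132, 0.187, 776, 2.45 and 124 CPM in brain with no skin above 0.220 CPM. In 9 of the 11 genes the brain of fish 38 was the highest. The ratio of highest to lowest brain ran from 15.7 to 1228, with a median of 45.1.

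A group of 8 fish-41-low genes formed the first of the other sets. Their levels in the brain of fish 41 were 0 to 2.34 CPM, from 0 to 41 reads, while the remaining brains had 2.08 to 42.4 CPM. Nfu_g_1_013166 was at 33.1, 36.9, 42.4, 18.7, 0.342 and 19.1 CPM in brain. In skin it was at 0.0445, 0, 0.134, 0.0738 and 0 CPM. Its lowest brain, at 6 reads, was thus the only one near the skins. Nfu_g_1_020348 was at 28.6, 29.4, 28.5, 14.8, 2.34 and 17.8 CPM in brain and at 0.534, 0.256, 0.0672, 0.148 and 0.330 CPM in skin. Here every brain lay above every skin. The order of the other brains was counted as well, with no count over all genes beside it. The brain of fish 24 was the highest in 5 of the 8 genes, that of fish 8 in 2 and that of fish 38 in 1. In 5 of the 8 the brain of fish 38 came just above that of fish 41. Among the high brains alone, the highest was 1.43 to 2.88 times the lowest on the CPM + 0.5 scale. The gap from the lowest of them down to the brain of fish 41 was 4.64 to 22.8 times.

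In skin, 6 of these 8 genes stayed below 1 CPM in every library, where 25.2% of all genes did. The exceptions were a gene at 2.03 to 3.62 CPM in the skins and Nfu_g_1_007665. Nfu_g_1_007665 was at 8.56, 6.18, 6.76, 9.07, 0.285 and 6.51 CPM in brain and at 80.7, 43.8, 75.4, 38.2 and 80.9 CPM in skin. It was low in the brain of fish 41, with 5 reads, and the skin of fish 41 was the lowest of the skins, though at 38.2 CPM close to the 43.8 CPM of fish 12.

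The 8 fish-38-low genes formed the other set of this size. The brain of fish 38 had 0.285 to 7.93 CPM of them, from 6 to 167 reads, and the remaining brains 4.48 to 116 CPM. Nfu_g_1_010119 was at 58.0, 101, 53.3, 7.93, 66.1 and 116 CPM in brain and at 0, 0.0852, 0, 1.44 and 0 CPM in skin. Nfu_g_1_015304 was at 33.0, 63.4, 31.3, 5.70, 42.9 and 62.6 CPM in brain and at 1.07, 0.511, 3.16, 2.47 and 3.08 CPM in skin. Both genes had every brain above every skin and the brains of fish 8 and 46 at the top. Across the 8 genes the brain of fish 8 was the highest in 4, that of fish 46 in 3 and that of fish 41 in 1. The brain just above fish 38 was that of fish 6 in 5 genes and that of fish 24 in 3. These counts describe values that also made the set, with no count over all genes beside them. The spread among the high brains was 1.71 to 2.31 times on the CPM + 0.5 scale, against a gap of 5.12 to 12.0 times down to fish 38.

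In skin, one of the 8 fish-38-low genes stayed below 1 CPM in every library, 4 reached 3 CPM in some skin, and the highest value was 25.6 CPM, in the skin of fish 41. The skin of fish 38 was the lowest skin in 2 of the 8, was at 0 together with other skins in 2 and was the highest in 2. In 4 of the 8 the skin of fish 41 was the highest, among them Nfu_g_1_010119, and this is the skin with the brain-like signal described above. The part of that signal in these values was not tested.

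**Figure D2:**
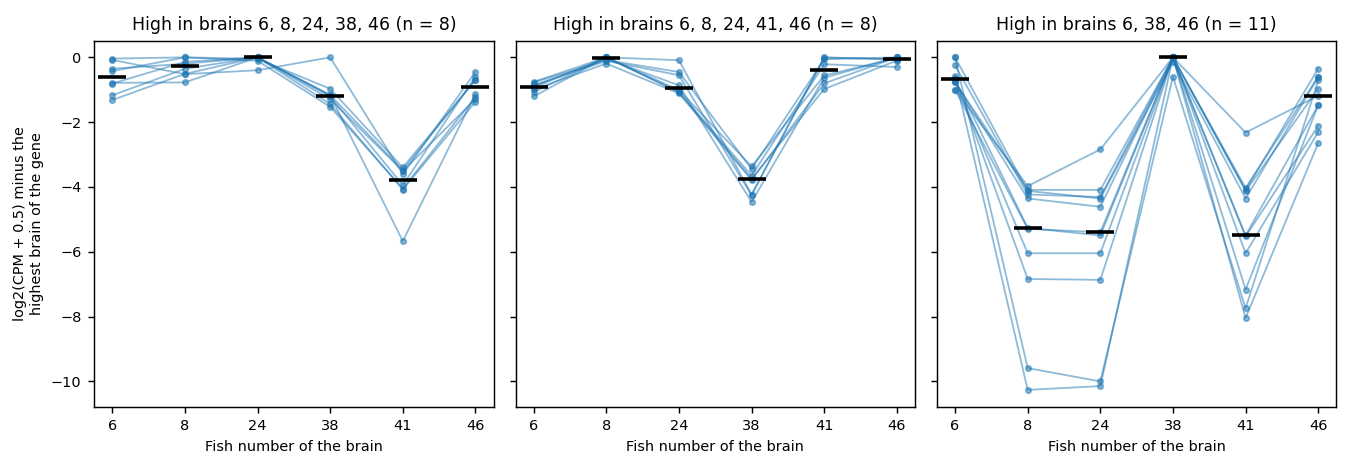
Level of each gene in each brain, as log2(CPM + 0.5) minus its value in its own highest brain, for the 3 sets with at least 5 genes. Each line is a gene and the black bars are medians over the genes of the set. In the first panel the brain of fish 41 is lowest in all 8 genes, and in the second panel the brain of fish 38 is lowest in all 8.

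There were 2 smaller sets of 4 genes each, and they and the sets below were picked for description after their values were seen. The first was high in the brains of fish 8, 24 and 46, and 3 of its genes were close to absent in the other brains. Nfu_g_1_012123 was at 0.226, 8.17, 8.68, 0.0475, 0.0570 and 8.49 CPM in brain, which is 5, 185, 186, 1, 1 and 167 reads. In skin it was at 17.6, 3.24, 5.72, 0.0738 and 19.7 CPM. Fish 41 was thus low and fish 8 and 46 high in both tissues, while fish 38 was low in brain only. Nfu_g_1_012517 was at 0.181, 9.31, 8.63, 0.237, 0 and 9.20 CPM in brain and at 2.76, 0.852, 1.21, 0 and 1.54 CPM in skin. The third of these genes had 0.136, 5.92, 5.13, 0.0949, 0 and 4.37 CPM in brain and 2.80, 0.341, 0.874, 0.0369 and 3.52 CPM in skin. All 3 had the skin of fish 41 at the bottom, at 0 to 0.0738 CPM, and the skin of fish 38 above it. The remaining gene of the set was graded in brain, at 13, 22.9, 30.3, 11.9, 4.39 and 54.0 CPM, and far higher in skin, at 61.4, 83.8, 207, 97.6 and 428 CPM. Fish 46 was the highest in both tissues for it.

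The second of these sets was high in the brain of fish 6 alone. Nfu_g_1_016022 was at 67.1, 11.1, 9.38, 7.45, 5.53 and 11.8 CPM in brain and at 91.5, 73.0, 45.2, 56.7 and 59.9 CPM in skin. Nfu_g_1_014748 was at 30.1, 6.62, 6.25, 3.09, 2.79 and 2.49 CPM in brain and at 7.60, 13.9, 5.78, 5.31 and 6.70 CPM in skin. The other genes of the set peaked at 29.8 and 13.1 CPM in the brain of fish 6, with at most 5.08 and 2.75 CPM in the other brains. All 4 reached 3 CPM in some skin. No skin of this fish was at hand to compare, since the only library with that label was kept apart.

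In the brain of fish 46 alone, 3 genes were low. Nfu_g_1_016232 was at 7.92, 17.4, 8.02, 12.8, 20.3 and 0.559 CPM in brain and at 4.71, 0.0426, 3.29, 6.86 and 0 CPM in skin. Nfu_g_1_017424 was at 19.2, 13, 6.48, 19.5, 9.80 and 0.508 CPM in brain and at 5.16, 0.213, 3.70, 2.55 and 0.330 CPM in skin. For both genes the skin of fish 46 was low together with its brain, and the skin of fish 12, a fish with no brain library, was low as well. The third gene of the set had 1.02 CPM in the brain of fish 46 and 6.95 to 16.1 CPM in the other brains. Its skins were at 23.1, 10.1, 19.0, 22.7 and 7.36 CPM, again with fish 46 and 12 lowest but with a smaller gap.

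The brains of both fish 38 and fish 46 were low for 3 further genes. Nfu_g_1_021952 was at 50.9, 69.1, 71.6, 4.37, 77.3 and 2.64 CPM in brain. Its skins showed no such gap, at 36.6, 56.9, 62.3, 104 and 51.5 CPM. Nfu_g_1_012151 was at 4.57, 10.6, 4.85, 1.23, 17.8 and 0.610 CPM in brain and at 7.42, 1.02, 0.874, 15.1 and 2.09 CPM in skin. Fish 41 and then fish 8 had the highest skins as well as the highest brains of this gene. The third gene peaked at 6.21 CPM in the brain of fish 41 and, at 0.738 CPM, in the skin of fish 41.

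Another set of 3 genes was low in the brains of fish 38 and fish 41. Nfu_g_1_009982 was at 8.42, 16.6, 7.79, 0.712, 1.77 and 18.5 CPM in brain and at 3.11, 1.07, 1.28, 1.92 and 1.76 CPM in skin. Nfu_g_1_021030 was at 9.83, 17.4, 7.79, 0.570, 1.77 and 9.10 CPM in brain, with no skin above 0.134 CPM. The third gene, at 3.40, 5.03, 7.0, 1.61, 0.570 and 13.4 CPM in brain, was higher in skin, at 8.0, 6.48, 23.3, 11.8 and 63.3 CPM. Fish 46 was highest for it in both tissues.

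The last 10 genes made 2 sets of 2 genes and 6 of 1 gene. Nfu_g_1_003674, high in the brains of fish 6, 8 and 24, was at 14.3, 26.8, 12.6, 0.332, 0.285 and 0.203 CPM in brain, the clearest step among them, with 4 to 7 reads in each low brain. Its skins were at 4.45, 0.170, 2.49, 1.37 and 2.31 CPM, so fish 38, 41 and 46 were not near 0 there. Nfu_g_1_014318 was at 0.543, 12.7, 13.9, 0.475, 12.1 and 15.4 CPM in brain and at 5.38, 2.22, 2.96, 7.64 and 8.68 CPM in skin. The brains of fish 6 and 38 held 12 and 10 reads of it. A gene high in the brains of fish 6 and 38, at 7.20 and 11.2 CPM, had at most 1.58 CPM in the other brains and at most 0.213 CPM in any skin.

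Across the 54 genes, skin expression was neither general nor rare. A level of at least 3 CPM in some skin was reached by 31 of them (57.4%), where 61.4% of all genes reached it. All genes here include those below 3 CPM in every brain. Of the 114 genes with a brain ratio of 5 to 10, 84 reached it (73.7%). Below 1 CPM in every skin were 17 of the 54, against 18 of the 114 and 25.2% of all genes. Of these 17, 7 belonged to the set high in the brains of fish 6, 38 and 46 and 6 to the fish-41-low set.

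Brain and skin were then compared in 1 fit of all genes, 6 brains against 5 skins. The edgeR quasi-likelihood test put 39.6% of 20149 genes higher in brain at an adjusted p of 0.05, and 36.8% lower in brain than in skin. Of the 54 genes, 47 passed the filter on low counts, and 14 of these were higher in brain, 9 were higher in skin and 24 were not called. Over all genes 4773 of the 20149 were not called. The genes were chosen for a wide spread between brains, and that spread enters this test. The counts are therefore a description of the chosen genes. How far the spread bears on them was not tested. A filter that keeps a gene for its high libraries treats such genes unevenly, and 6 of the 7 it removed belonged to the set of fish 6, 38 and 46. The median log2 fold change of the 47, brain minus skin, was 0.25, against 0.06 over all genes tested.

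Calls by set are a description only, since the sets were made from brain values that also enter the test and the filter. Of the fish-41-low genes 6 were higher in brain, 1 was higher in skin and 1 was not called, with a median log2 fold change of 5.75. Of the fish-38-low genes 5 were higher in brain and 3 were not called, with a median of 3.11. In the sets of 4 genes, no gene was called higher in brain, 1 of those high in fish 8, 24 and 46 was higher in skin, and 2 of those high in fish 6 alone were. Of the 5 tested genes high in fish 6, 38 and 46, 2 were higher in brain and 1 in skin. No test compared the sets with each other.

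The first genes by adjusted p in each direction are given as log2 fold changes of brain over skin. The CPM means are scaled to library size only, while these fold changes use further scaling factors, so the scales differ. With library size only, the fold changes were 6.21, 8.76, -3.35 and -3.82 for the genes in the order given below. Nfu_g_1_020348, fish-41-low, averaged 20.2 ± 10.7 CPM in brain (SD, n = 6) and 0.267 ± 0.180 CPM in skin (SD, n = 5), which edgeR put at 5.04 ± 0.68 (SE) on the log2 scale, adjusted p = 2.46e-05. Nfu_g_1_013166 averaged 25.1 ± 15.5 CPM in brain and 0.0505 ± 0.0564 CPM in skin, which edgeR put at 7.64 ± 1.17 (SE) on the log2 scale, adjusted p = 6.97e-05. The filter kept Nfu_g_1_013166 only with all its high brains in the fit. It was thus kept for the tissue in which it was high, and its call is a description only. Higher in skin were Nfu_g_1_007665 and Nfu_g_1_000375, and for both every skin lay above every brain. Nfu_g_1_007665 averaged 6.23 ± 3.14 CPM in brain and 63.8 ± 21.0 CPM in skin, which edgeR put at -4.53 ± 0.57 (SE) on the log2 scale, adjusted p = 1.31e-05. Nfu_g_1_000375 averaged 2.21 ± 2.23 CPM in brain and 31.2 ± 10.6 CPM in skin, which edgeR put at -4.99 ± 0.74 (SE) on the log2 scale, adjusted p = 5.2e-05.

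These counts depended on the fit. A fit of the same libraries blocked on the fish number takes the tissue difference from fish 8, 38, 41 and 46, which had both tissues. The brains of fish 6 and 24 and the skin of fish 12 carry no weight in that difference. This paired fit called 13 of the 47 genes tested higher in brain and 18 lower in brain than in skin, against 14 and 9 without the block. Over all genes the paired fit called 39.6% and 34.9%. It called Nfu_g_1_014748, Nfu_g_1_012151 and Nfu_g_1_021952 lower in brain, at log2 fold changes of -1.99, -1.13 and -3.02 (edgeR adjusted p = 0.000734, 0.0403 and 0.0467), which the fit without the block did not. Leaving out the brain of fish 6, 8 or 24 left 8 called higher in brain, and leaving out that of fish 46 left 9. In these fits 39 or 40 of the genes passed the filter, and 39.37 to 39.56% of all genes were called higher in brain. Nfu_g_1_013166 was not tested when the brain of fish 6, 8, 24, 38 or 46 was left out. With library size in place of TMM factors (trimmed mean of M-values), the median log2 fold change of all genes was 1.25 in place of 0.06. In that fit 19 of the 47 genes tested were called higher in brain and 7 lower, where 63.3% and 18.7% of all genes were. A fit of all 12 libraries, in which the one kept apart joined the skins, called 6 and 9 of the 41 genes tested, and 24.01% and 31.85% of all genes. How the share of calls among the 54 stood to the share over all genes thus depended on the fit.

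**Figure D3:**
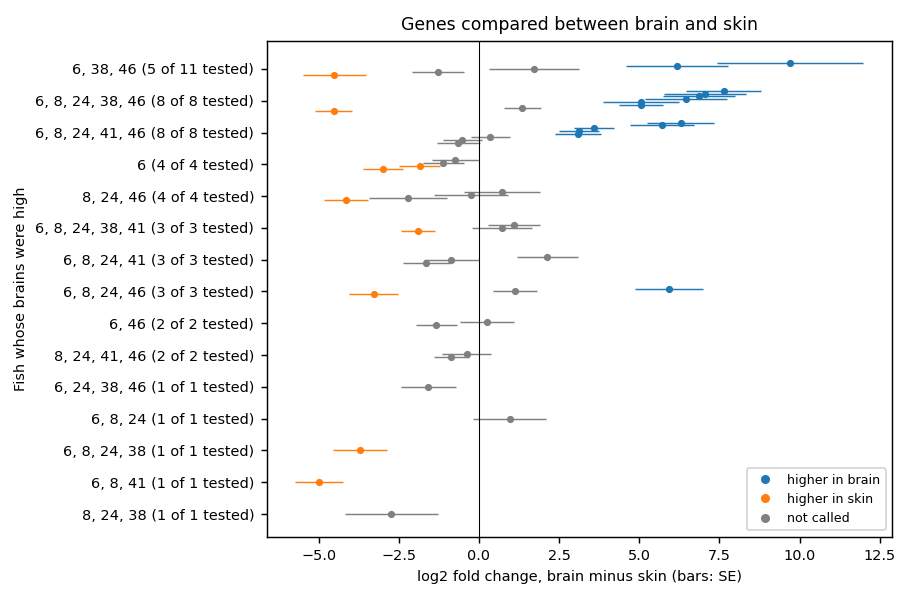
Log2 fold change (brain minus skin) of the 47 genes tested, with its standard error as bars, in rows by the fish whose brains were high. Blue genes were higher in brain, orange genes higher in skin and grey ones were not called by edgeR at an adjusted p of 0.05. The 14 blue genes lie to the right of 0, the 9 orange genes to the left and the 24 grey genes on both sides.

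The skins had no part in choosing the genes, so their spread is a separate measurement. Of the 54 genes, 8 also varied 10-fold or more between the 5 skins at 3 CPM or above (14.8%), where 2.61% of all genes did. Among 114 genes with a brain ratio of 5 to 10, 11 did (9.65%). The 8 came from 8 different sets. Nfu_g_1_004948 had the largest ratio between skins, 75.4. It was at 0.725, 9.31, 4.71, 1.95, 0.114 and 0.102 CPM in brain and at 37.2, 0, 7.13, 0.0369 and 0.220 CPM in skin. Fish 8 was high and fish 41 and 46 were near 0 in both tissues, and fish 38 stood between in both. The second largest ratio was that of Nfu_g_1_012123, at 35.2.

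For several of the 8, the order of the fish was nearly the same in the tissues. Nfu_g_1_005571 was at 25.7, 2.60, 21.6, 16.3, 12.3 and 71.6 CPM in brain and at 3.02, 10.2, 40.7, 14.6 and 96.0 CPM in skin. Over fish 8, 38, 41 and 46 its order in brain, with fish 46 highest and fish 8 lowest, was also its order in skin. Nfu_g_1_007654, of the set high in fish 6, 38 and 46, was at 190.4, 23.7, 52.6, 380.1, 75.6 and 167 CPM in brain and at 26.8, 20.8, 428, 143 and 154 CPM in skin. Its order over the shared fish was the same in brain and skin as well. In contrast, Nfu_g_1_021435 was at 224, 21.1, 66.1, 19.3, 19.8 and 96.2 CPM in brain and at 1.91, 43.8, 23.4, 8.64 and 54.6 CPM in skin. Of the shared fish, fish 46 was the highest in both tissues, but fish 8 was the lowest in skin only. Nfu_g_1_000096 was at 3.94, 2.16, 3.40, 7.60, 0.797 and 0.305 CPM in brain and at 17.0, 40.8, 19.1, 2.69 and 3.52 CPM in skin, where fish 38 was the highest of the shared fish and fish 41 and 46 were low in both tissues.

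**Figure D4:**
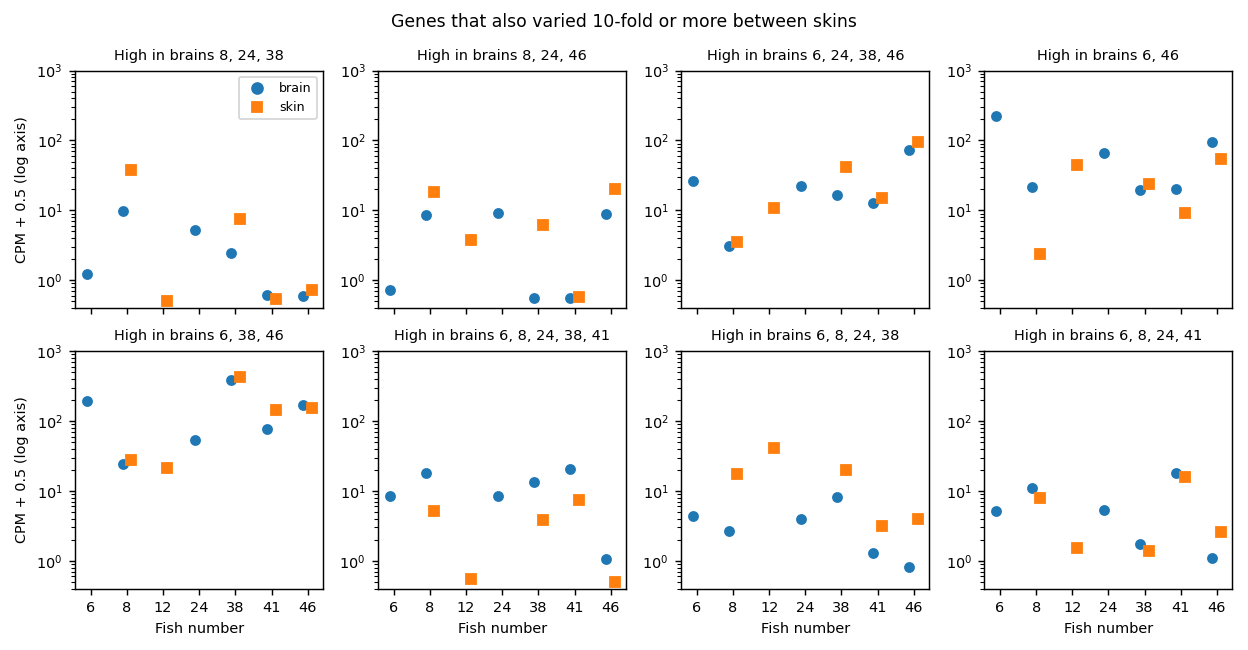
CPM + 0.5 on a log axis in brain (circles) and skin (squares) by fish number, for the 8 genes that also varied 10-fold or more between skins, each panel titled by the brains that were high. In the first panel fish 8 is highest in both tissues, at 9.31 CPM in brain and 37.2 CPM in skin, and in the third panel fish 46 is, at 71.6 and 96.0 CPM.

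Agreement between the tissues of a fish was counted over fish 8, 38, 41 and 46. Of the 29 genes with at least 3 CPM in one of these skins, 16 had their highest brain and their highest skin in the same fish (55.2%), where 28.8% of all such genes did. The lowest brain and lowest skin were of the same fish, with no tie, in 12 of the 29 (41.4%), against 30.7% of all. Of the 84 such genes with a brain ratio of 5 to 10, 45 had the same highest fish (53.6%) and 27 the same lowest (32.1%), so the share for the highest fish was close to that of the genes just below the bound. With 3 fish in place of 4, the same highest fish was found in 19 of 27 genes without fish 8 (70.4%, against 38.6% of all such genes). It was found in 19 of 29 without fish 38 (65.5%, against 37.7%) and in 16 of 28 without fish 46 (57.1%, against 34.7%). Without fish 41 it was found in 13 of 29 (44.8%, against 39.2%), the smallest difference of these. The skin of fish 41 is the one with the brain-like signal described above, and the part of that signal in these counts was not tested. With 4 fish no correlation was computed for single genes, and the counts carry no test.

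A further reading of the genes, which the choice did not use, came from the library labelled skin of fish 6. Of the 54 genes, 44 were within 2-fold of the brain of fish 41 in this library, on the CPM + 0.5 scale. Within 2-fold of the brains of fish 6, 8, 24, 38 and 46 were 18, 27, 29, 14 and 16. Over the 16626 genes, 97.6% were within 2-fold of the brain of fish 41, and 96.5, 96.5, 97.0, 96.4 and 96.2% were within 2-fold of those of fish 6, 8, 24, 38 and 46. The brain of fish 41 was the nearest of the 6 brains for 29 of the 54 genes, where it was for 21.3% of the 16626. Across the 54 genes, the deviation of this library from the mean of the brains had a Spearman's rho of 0.87 with that of the brain of fish 41 and of -0.52 to 0.16 with those of the other brains. These values rest on the same libraries and on a shared mean, and describe these libraries only.

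By set, most of the fish-41-low genes were low in the library labelled skin of fish 6 too. Nfu_g_1_013166 was at 0.0520 CPM and Nfu_g_1_020348 at 2.55 CPM there, and 7 of the 8 were within 2-fold of the brain of fish 41. The exception was Nfu_g_1_007665, at 4.26 CPM there. The fish-38-low genes were not low in it. Nfu_g_1_010119 was at 61.0 CPM and Nfu_g_1_015304 at 40.3 CPM, and all 8 were within 2-fold of the brains of fish 6, 24, 41 and 46, 7 within 2-fold of that of fish 8 and none within 2-fold of that of fish 38. The 11 genes of the set high in fish 6, 38 and 46 were within 2-fold of the brain of fish 41 in 10 cases, of that of fish 24 in 8, of that of fish 8 in 7 and of those of fish 6, 38 and 46 in 1 each.

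**Figure D5:**
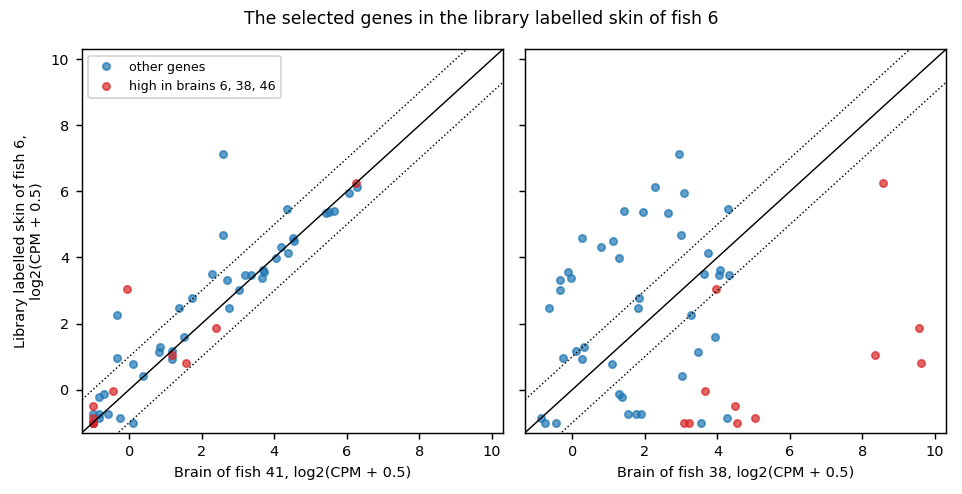
Level of the 54 genes in the library labelled skin of fish 6 against the brain of fish 41 (left) and of fish 38 (right), as log2(CPM + 0.5). The solid line marks equal levels and the dotted lines a 2-fold difference, within which 44 genes lie on the left and 14 on the right.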

How the data were processed

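The deposited table holds raw read counts per gene for each library and, beside them, the authors' RPKM values (reads scaled to gene length and library total). The submitters' processing notes list TopHat2 2.0.6, featureCounts 1.4.3-p1 and CASAVA 1.8.4 without saying what each did. How reads shared by near-identical or overlapping genes were treated, the strand setting, the build and the annotation are not given in the sources used, so such genes are uncertain. Of 23546 identifiers, 0 were found among 38438 genes of the RefSeq table of assembly NfurGRZ-RIMD1, so lists of marker genes could not be applied and no sequence is shown.

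CPM was computed from the deposited counts and each library's sum. The genes and the sets were chosen with earlier results of these data known. Counts were tested with edgeR 4.0.16 under R 4.3.3 (TMM factors, filterByExpr by tissue, robust quasi-likelihood fit, Benjamini-Hochberg adjustment over all genes). DESeq2 1.42.0 was an alternative. Standard errors were derived from the estimate and its F statistic. The script was tested on simulated data. The library labelled skin of fish 6 was left out of the test. In each set of at least 5 genes the 2 with the highest brain CPM are named, and the first 2 by adjusted p in each direction between tissues. Names in smaller sets were chosen after the values were seen. Alternatives covered pseudocount, bounds, scaling, filter, tool, block and left-out libraries.

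Fish numbers are given as fish identifiers in the labels, so libraries of the same number in both tissues were taken as 1 animal. Deviations from the tissue mean of brain and skin of the same number correlated at 0.200, 0.102, 0.0894 and 0.349 for fish 8, 38, 41 and 46, over 7332 genes. Different numbers were not correlated, so these values cannot show that libraries of the same number match better than others. Only these fish had both tissues among the libraries compared. By the labels, no fish gave more than 1 library per tissue. Variation among fish can thus not be told apart from variation among samples, and no label gives a batch.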

Additional observations from a re-analysis of the deposited data

Results flagged for a closer look

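Of the 36 groups of library values of 18 named genes, 5 held 1 library far from the rest. The 36 include groups whose highest value was below 3 CPM, which were not examined. The bound used gives about 1 in 20 by chance for normally distributed values, a rate that does not carry over to these CPM values. The genes were chosen for their spread between brains, so the brain values are no independent sign. Nfu_g_1_016022 was at 67.1 CPM in the brain of fish 6, with the next brain at 11.8 CPM. Nfu_g_1_014748 was at 30.1 CPM in the brain of fish 6, with the next brain at 6.62 CPM. In skin, Nfu_g_1_014748 was at 13.9 CPM in fish 12, with the next skin at 7.60 CPM. Nfu_g_1_007665 was at 0.285 CPM in the brain of fish 41, with the next brain at 6.18 CPM. Nfu_g_1_000375 was at 12.4 CPM in the skin of fish 12, with the next skin at 34.0 CPM.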

How the results depend on the processing

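The number of genes that met the rule was 33 with a pseudocount of 1 CPM, 90 with 0.1 CPM, 13 at a ratio of at least 20 and 168 at a ratio of at least 5. It was 54 with TMM-scaled CPM, the same 54 genes, and 37 to 52 with a brain left out. With a pseudocount of 1 CPM the fish-41-low set had 2 genes in place of 8, since a larger pseudocount lowers the ratios. Nfu_g_1_020348, at 29.4 CPM in its highest brain and 2.34 CPM in that of fish 41, was among those lost. The sets of at least 5 genes kept their genes, with up to 2 more, when brains were divided at the largest gap instead. Genes with at least 10 CPM in some skin numbered 20, in place of 31 at 3 CPM. Genes called higher in brain numbered 22 of 54 tested without a filter on low counts (37.0% of all genes) and 23 of 53 with DESeq2 (37.6%). They numbered 6 of 41 with all 12 libraries under their labels (24.01%), against 14 of 47 (39.6%). With 1 library left out they numbered 8 to 17 of 39 to 49 genes tested, where 38.35 to 42.61% of all genes were called higher in brain. The replicate block raised the calls toward skin to 18, with 13 toward brain. Counts with 1 library left out were 9 to 12 higher in skin, where 34.44 to 38.19% of all genes were. They were 29 to 31 detected in skin and 6 to 8 with a 10-fold spread between skins. With 1 fish left out, in both tissues, 13 to 19 of 27 to 29 genes had the same highest fish. The share of all such genes was then 34.7 to 39.2%, against 28.8% with 4 fish. Within 2-fold of the brain of fish 41 were 48 genes with a pseudocount of 1 CPM, a setting chosen after seeing the data. Of 282 refits of 17 of the 18 genes examined for a library far from the rest, 269 kept direction and call. Refits of the other genes named in the text were not counted. Refits that gave no adjusted p for a gene are not among the 282. Nfu_g_1_013166 had no value with all 12 libraries, or with any brain other than that of fish 41 left out. Nfu_g_1_014748 had no adjusted p with DESeq2. Nfu_g_1_014748, not called at a log2 fold change of -1.11, was called at -1.99 with the replicate block and -2.10 without the brain of fish 6. In the fit with the replicate block the brain of fish 6, which had no skin there, carries no weight in the fold change either. With library size only, Nfu_g_1_014748 was at 0.12. Nfu_g_1_012151, not called at -0.86, was called at -1.13 with the replicate block, and was at 0.29 with library size only and at -1.32 to 0.056 with 1 library left out, the last without the skin of fish 41. The cause of these changes was not tested.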

Other observations

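One of the 54 genes stood out in the library labelled skin of fish 6, which the main test between tissues left out. Nfu_g_1_002545 was at 141 CPM there, above its highest brain at 60.5 CPM and its highest skin at 48.8 CPM, a ratio of 2.32 to the next library on the CPM + 0.5 scale. A gene of the fish-38-low set was at 23.4 CPM in that library and Nfu_g_1_012151 at 19.6 CPM, just above their highest brains at 22.6 and 17.8 CPM.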
